A study of Mus musculus with 8 samples.

Results

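The genes described here encode proteins of the synaptic vesicle and of the SNARE machinery, which fuses vesicles with the presynaptic membrane. Snap25, Vamp1, Vamp2, Stx1a, Syt1, Syn1, Syn2, Sv2a and Syp were listed by name, and every probe carrying one of these symbols with a value on all 8 arrays was kept. Of 9 genes 8 were measured, by 12 of 13 annotated probes, out of 16588 probes and 11147 named genes with values. Syn2 had no probe, and 1 of the 2 Vamp1 probes was blank on all arrays. Snap25, Syt1, Syn1 and Sv2a have 2 measured probes each, numbered here by brightness, and the sources used here do not say which transcript or exon a probe reads.

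The study asked how loss of the T-type calcium channel Cav3.2 and trace fear conditioning (TFC) alter the hippocampal transcriptome. The left hippocampus was measured in 4 groups, all of male mice of C57BL/6 background aged 6 to 8 weeks. KNL mice were naive homozygous Cav3.2 knockouts and WNL mice were naive wild types. KTL mice were Cav3.2 knockouts and WTL mice wild types that had undergone TFC and were killed right after the test of contextual memory. The knockout is germline and thus affects every cell, and the deleted gene is Cacna1h. Each RNA sample was pooled from 3 mice, and each group was measured on 2 arrays. The sources do not say whether the 2 arrays of a group held separate pools, so p-values measure only the spread between arrays, which may be technical.

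Transmitter release depends on a helical bundle that joins synaptobrevin on the vesicle to syntaxin and SNAP-25 on the plasma membrane. Synaptotagmin binds calcium and triggers fusion, synapsins tether vesicles in the reserve pool, and SV2A and synaptophysin are abundant proteins of the vesicle membrane. In the hippocampus, as in other brain regions, these proteins mark presynaptic terminals of both excitatory and inhibitory neurons.

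The promoters of Vamp1, Stx1a, Syp and Syn1 are shown as examples of genes with probes that differed between KNL and WNL in opposite directions. Of these Syp was the gene that was lower, and Syn1 passed by 1 of its 2 probes. Sv2a and Syt1 also had 1 such probe each and are not shown. Snap25 probe 2 was lower too, by -1.43 on the log2 scale, but Snap25 had no matched promoter to show. The promoters shown are the 250 bases upstream of the RefSeq start of each gene in build GRCm38.p6, read 5′ to 3′ on the strand of the gene. A RefSeq promoter was matched for 7 of the 9 genes, all but Snap25 and Vamp2. The windows are chr6:125215331-125215580 on the plus strand for Vamp1, chr5:135023232-135023481 on the plus strand for Stx1a, chrX:7638330-7638579 on the plus strand for Syp and chrX:20920919-20921168 on the minus strand for Syn1. Capitals mark the GC box GGGCGG, the cAMP response element TGACGTCA, its short form TGACG, and TCAGCACC, the left part of the RE1 element of neuronal genes, each searched on both strands.
Vamp1: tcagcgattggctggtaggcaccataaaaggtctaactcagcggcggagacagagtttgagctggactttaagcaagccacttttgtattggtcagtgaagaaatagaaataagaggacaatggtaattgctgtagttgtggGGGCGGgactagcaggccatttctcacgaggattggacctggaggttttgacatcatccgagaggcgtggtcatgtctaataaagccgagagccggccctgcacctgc
Stx1a: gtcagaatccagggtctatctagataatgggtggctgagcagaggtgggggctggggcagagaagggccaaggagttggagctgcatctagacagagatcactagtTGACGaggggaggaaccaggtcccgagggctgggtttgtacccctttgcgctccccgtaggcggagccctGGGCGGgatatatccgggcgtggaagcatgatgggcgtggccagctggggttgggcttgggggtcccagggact
Syp: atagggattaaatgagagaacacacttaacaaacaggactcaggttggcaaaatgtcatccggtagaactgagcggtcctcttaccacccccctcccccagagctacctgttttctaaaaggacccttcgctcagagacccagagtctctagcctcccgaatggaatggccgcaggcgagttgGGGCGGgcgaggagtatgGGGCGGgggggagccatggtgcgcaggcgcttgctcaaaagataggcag
Syn1: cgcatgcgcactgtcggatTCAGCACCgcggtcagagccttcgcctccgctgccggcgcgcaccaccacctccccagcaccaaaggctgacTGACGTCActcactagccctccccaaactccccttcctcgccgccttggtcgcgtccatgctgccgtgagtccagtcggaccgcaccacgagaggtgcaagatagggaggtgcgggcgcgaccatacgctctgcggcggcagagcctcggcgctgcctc
Vamp1 and Stx1a each held 1 GC box, 103 and 69 bases from the start, and Syp held 2, the nearer 44 bases away. Syn1 held none. The GC box occurred in 32.7% of 32851 mouse promoter windows of the same length. Syn1 carried the full cAMP response element 152 bases and the RE1 part 224 bases upstream, letters present in 1.55% and 1.32% of windows, and Stx1a carried the short form alone, which overlaps the full element and occurred in 17.8%. The TATA box TATAAA, found in 12.4% of windows, was in none of the 4. The GC box was thus shared by Syp, lower in KNL, and by Vamp1 and Stx1a, higher in KNL, and such a match is a description of letters and not of a bound site.

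Cacna1h, the targeted gene, was dimmer on the knockout arrays without being absent. Its probe read 1929 and 1377 in KNL against 2732 and 2985 in WNL, and 1171 and 1395 in KTL against 2836 and 1838 in WTL. Neither genotype pair overlapped, but the changes of -0.81 in KNL vs WNL and -0.84 in KTL vs WTL (log2) did not pass the test (limma adjusted p = 0.0303 and 0.190). Whether the probe lies in the deleted part is not known, so it does not check the labels. The KNL arrays stood apart as a pair: across all probes the log2 values of a KNL array and an array of another group correlated at 0.852 to 0.938, arrays of different other groups at 0.968 to 0.985, and replicate arrays at 0.979 to 0.993. KNL enters both KNL vs WNL and KTL vs KNL, and the changes below that involve KNL rest on these 2 arrays. Of 13 measured markers of hippocampal pyramidal and granule neurons, Prox1 (the granule cell factor), Neurod6 and 3 more fell in KNL vs WNL, and Camk2a, the kinase of excitatory synapses, read 9841 and 9581 in KNL against 9229 and 8865 in WNL. The summed intensity of 8 choroid plexus markers was 28623 and 27489 in KNL against 65583 and 63258 in WNL, and 26593 and 26846 in KTL against 52873 and 49669 in WTL. Ttr, transthyretin, made up the naive gap with 13737 and 10093 in KNL against 49816 and 49065 in WNL, and the other 7 markers summed to 14886 and 17396 in KNL against 15766 and 14193 in WNL. Without Ttr the trained groups still differed, at 9150 and 8408 in KTL against 14617 and 14428 in WTL. Summed intensities were 48211 and 52237 in KNL against 42719 and 49509 in WNL for the 13 hippocampal neuron markers. The largest part was C1ql2, with 27081 and 30705 in KNL against 16533 and 24132 in WNL. The median log2 change of the 13 was -0.61, against 0.13 over all named genes. For 11 pan-neuronal markers, of which 4 fell and 0 rose, the sums were 154507 and 164606 in KNL against 123657 and 136657 in WNL. Here the largest part was Elavl3, with 48492 and 56188 in KNL against 33325 and 39324 in WNL. The median log2 change of the 11 was -0.22, against the same 0.13 over all named genes. Of the other lists, interneurons had 2 risers and 1 faller among 8 markers and endothelium 1 of each among 7 in KNL vs WNL. Of astrocytes 2 of 9 fell, of oligodendrocytes 1 of 8, of microglia 2 of 9, of choroid plexus 1 of 8 and of thalamus 2 of 7, and 0 of 6 neocortex markers were called by limma, with 2 at an unadjusted p under 0.05. Across all named genes 19.9% were called in this comparison, and 65.9% had an unadjusted p under 0.05. The part of these markers in the changes of the synaptic genes was not tested. In pooled tissue RNA, fewer cells of a type and less RNA per cell cannot be told apart.

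In KNL vs WNL, 1 probe of Vamp1, a vesicle SNARE, rose and 1 of Snap25, a plasma membrane SNARE, fell by more than 2-fold, while Syp fell and Stx1a and single probes of Sv2a, Syt1 and Syn1 rose by less. A probe was called when its limma p-value, adjusted over all probes, was under 0.01 and it changed more than 2-fold. By this rule 2 of 12 probes (16.7%) were called, against 20.4% of all probes tested. At an adjusted p under 0.01 with any fold, 5 rose and 2 fell, 7 of 12 in all, against 37.8% of all probes. The 12 probes, here and below, include Snap25 probe 1, which lay at the top of the intensity scale and could not show a rise. The median change was 0.18 over the 12 probes and 0.16 over all probes on the log2 scale. Of the 12 probes 9 lay in the brightest of 10 equal bins of intensity, where 11.6% of probes were called and 30.2% passed the adjusted p. The 2-fold count of these genes was thus near that of the array, and the count at any fold was above it, on only 12 probes of 8 genes. The 7 kept that adjusted p in 2 (Syn1 probe 2) to 16 (Vamp1 and Syp) of 16 alternative limma settings.

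**Figure D1:**
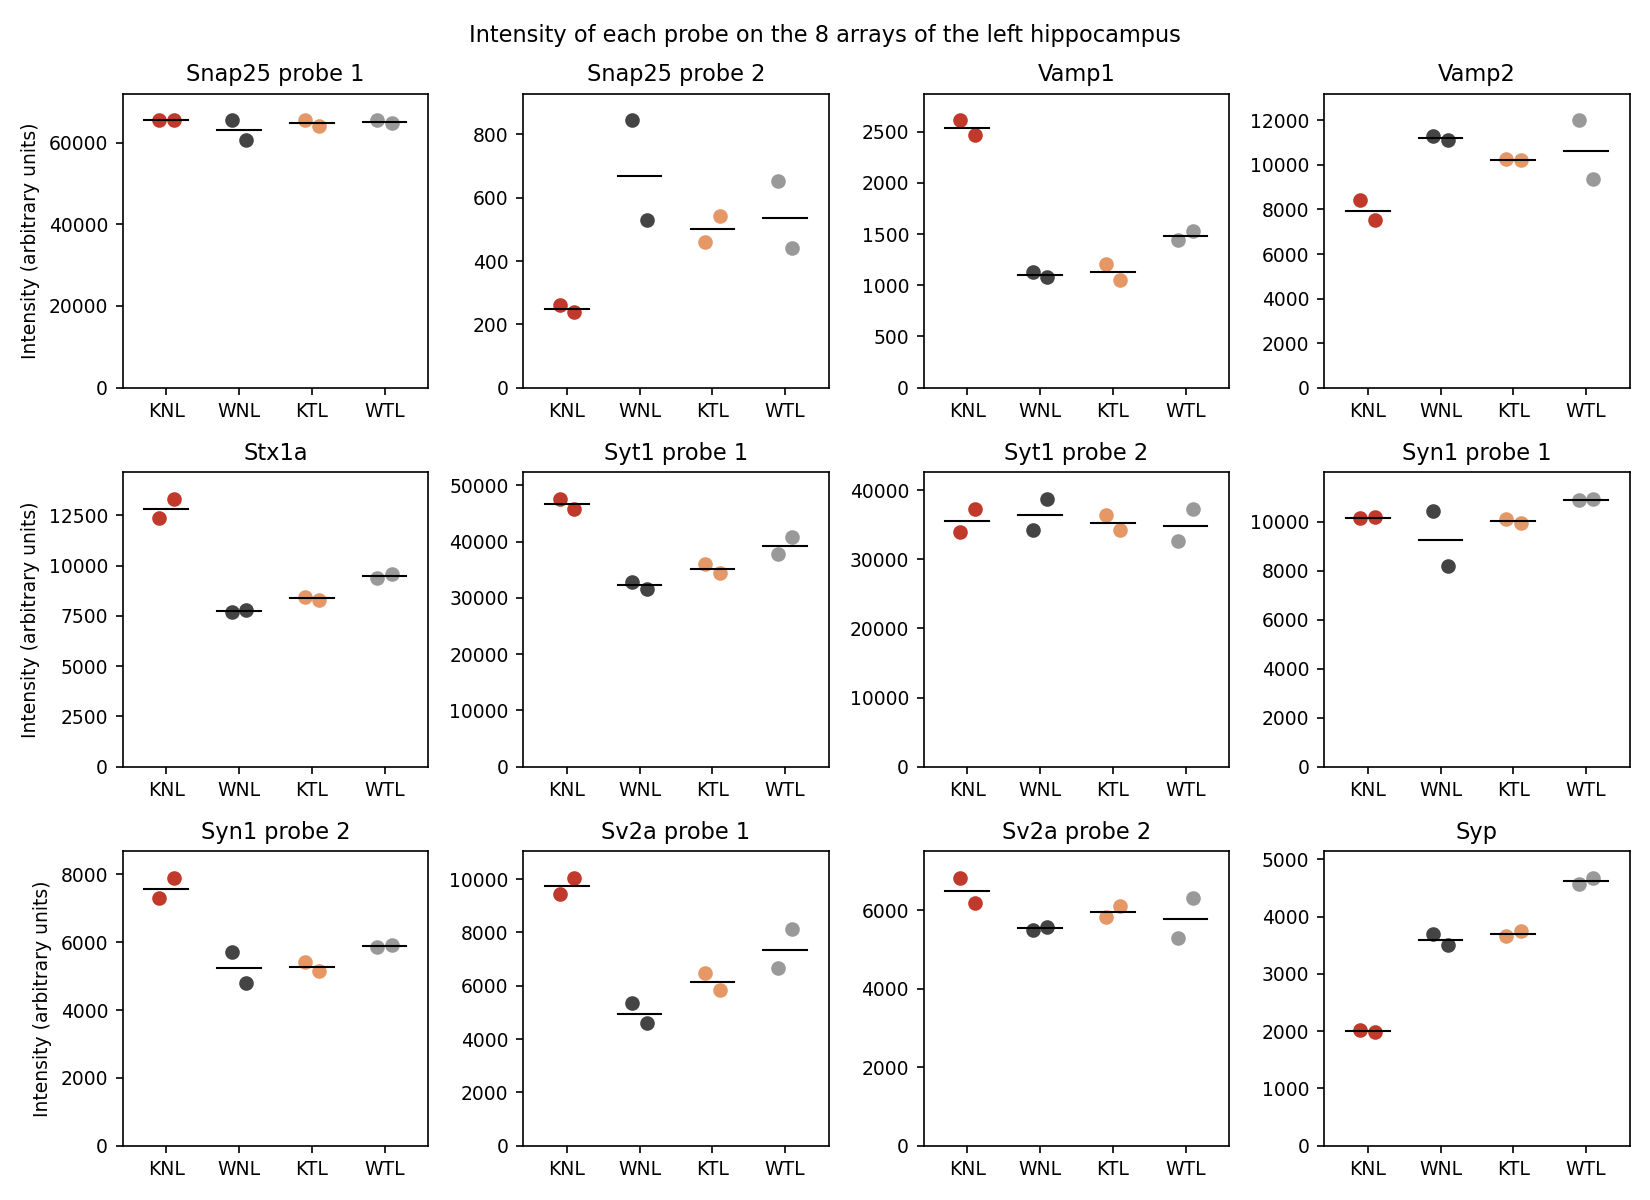
Intensity in arbitrary units on a linear axis for each of the 12 probes in KNL, WNL, KTL and WTL; each point is 1 array and each line the geometric mean of 2 arrays. The KNL points of Vamp1 (2611 and 2467) and Stx1a lie above, and those of Syp (2025 and 1990) and Snap25 probe 2 below, the points of the other groups.

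Snap25 forms the SNARE bundle with syntaxin, and its probe 1 lay at the top of the intensity scale. It read 65476 and 65479 in KNL, 65444 and 60758 in WNL, 65476 and 64165 in KTL, and 65476 and 64777 in WTL. On 6 of 8 arrays its deposited value was within 1% of the array maximum, so a rise could not have been read, and no change of this probe is interpreted. Probe 2, near the middle of the range, read 260 and 238 in KNL, 845 and 530 in WNL, 461 and 542 in KTL, and 653 and 441 in WTL. Both KNL arrays lay below all others, and WNL, KTL and WTL overlapped. The change was -1.43 ± 0.27 (log2, SE, n = 2 each) in KNL vs WNL, 2.69-fold lower, with a limma adjusted p of 0.00523. In KTL vs KNL it was 1.01 ± 0.27, which did not pass (adjusted p = 0.0192). The KNL vs WNL call was lost without WNL replicate 1, where the change was -1.09 (adjusted p = 0.0243), without either KNL array (adjusted p = 0.0317 and 0.0495) and without either KTL array (adjusted p = 0.0145 each).

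Stx1a, the syntaxin of the neuronal plasma membrane, read 12392 and 13307 in KNL, 7699 and 7784 in WNL, 8440 and 8305 in KTL, and 9401 and 9581 in WTL. No 2 groups overlapped, and the order of the groups was KNL, WTL, KTL and WNL. Stx1a rose 1.66-fold in KNL vs WNL (0.73 ± 0.10, adjusted p = 0.00146) and fell by 0.62 ± 0.10 on the log2 scale in KTL vs KNL (adjusted p = 0.00281), with an adjusted p under 0.01 in 15 and 12 of 16 alternative limma settings. The steps between KTL, WTL and WNL were 0.29 or smaller in size and none passed the test.

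The vesicle SNAREs, both synaptobrevins, had changes of opposite sign. Vamp1 read 2611 and 2467 in KNL, 1125 and 1080 in WNL, 1211 and 1054 in KTL, and 1440 and 1529 in WTL. KNL was the highest group and WTL the next, and KTL and WNL overlapped. Vamp1 rose 2.30-fold in KNL vs WNL (1.20 ± 0.11, adjusted p = 0.000463) and was 2.25-fold lower in KTL vs KNL (-1.17 ± 0.11, adjusted p = 0.000637). It was called in both comparisons. Vamp2, the main synaptobrevin of forebrain neurons, read 8409 and 7512 in KNL, 11305 and 11129 in WNL, 10254 and 10208 in KTL, and 12006 and 9387 in WTL. Its KNL arrays lay below all others, and the WTL arrays spanned those of WNL and KTL. The change of -0.50 ± 0.14 in KNL vs WNL did not pass (adjusted p = 0.0227, 95% interval -0.84 to -0.16), nor did 0.36 ± 0.14 in KTL vs KNL (adjusted p = 0.0630). The difference between the Vamp1 and Vamp2 probes was not tested.

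Syt1, the calcium sensor of fast release, had 1 probe that changed and 1 that did not pass. Probe 1 read 47523 and 45812 in KNL, 32861 and 31654 in WNL, 35945 and 34400 in KTL, and 37799 and 40866 in WTL. KNL lay above all other arrays, WNL below, and no 2 groups overlapped. The change was 0.53 ± 0.10 in KNL vs WNL (adjusted p = 0.00493) and -0.41 ± 0.10 in KTL vs KNL (adjusted p = 0.0136). The first kept an adjusted p under 0.01 in 8 of 16 alternative limma settings. Probe 2 read 33970 and 37241 in KNL, 34173 and 38689 in WNL, 36453 and 34173 in KTL, and 32594 and 37241 in WTL. All 4 groups overlapped, and the change in KNL vs WNL was -0.03 with a 95% interval of -0.33 to 0.27 (adjusted p = 0.837).

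Syn1, the synapsin that links vesicles to the actin network, gave a like pair. Probe 1 read 10135 and 10174 in KNL, 10437 and 8202 in WNL, 10108 and 9939 in KTL, and 10875 and 10908 in WTL. Only WTL stood apart from the other groups, on its upper side, and the KNL vs WNL change of 0.13 had a 95% interval of -0.19 to 0.45 (adjusted p = 0.403). Probe 2 read 7291 and 7886 in KNL, 5710 and 4788 in WNL, 5408 and 5144 in KTL, and 5873 and 5904 in WTL. KNL lay above all other arrays, and KTL fell within the span of WNL. The change was 0.54 ± 0.12 in KNL vs WNL (adjusted p = 0.00982) and -0.52 ± 0.12 in KTL vs KNL (adjusted p = 0.0111). The first of these kept an adjusted p under 0.01 in 2 of 16 alternative limma settings.

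Sv2a, a vesicle glycoprotein and the target of the antiepileptic drug levetiracetam, also differed by probe. Probe 1 read 9441 and 10036 in KNL, 5340 and 4603 in WNL, 6463 and 5842 in KTL, and 6649 and 8118 in WTL. No 2 groups overlapped, with KNL highest and WNL lowest. The change in KNL vs WNL was 1.96-fold (0.97 ± 0.14, adjusted p = 0.00212), just under the 2-fold limit, and in KTL vs KNL it was -0.66 ± 0.14 (adjusted p = 0.00870). They kept an adjusted p under 0.01 in 12 and 6 of 16 alternative limma settings. Probe 2 read 6809 and 6173 in KNL, 5487 and 5578 in WNL, 5813 and 6089 in KTL, and 5297 and 6306 in WTL. WTL spanned WNL and KTL and reached into KNL. The KNL vs WNL change was 0.23 with a 95% interval of -0.07 to 0.52 (adjusted p = 0.144).

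Syp encodes synaptophysin, the vesicle protein most used to stain presynaptic terminals. Its probe read 2025 and 1990 in KNL, 3695 and 3497 in WNL, 3654 and 3744 in KTL, and 4567 and 4669 in WTL. KNL lay below and WTL above all other arrays, and KTL and WNL overlapped. Syp was 1.79-fold lower in KNL vs WNL (-0.84 ± 0.09, adjusted p = 0.000879) and 1.84-fold higher in KTL vs KNL (0.88 ± 0.09, adjusted p = 0.000868). Both stayed short of 2-fold. The KNL vs WNL change of Syp kept an adjusted p under 0.01 in all 16 alternative limma settings, and that of KTL vs KNL in 15.

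In KTL vs KNL, the test of training in the knockout, the probes that passed lay nearer to WNL in KTL than in KNL. Vamp1 alone was called, 1 of 12 probes (8.33%) against 20.1% of all probes. At an adjusted p under 0.01 with any fold, Syp rose and Vamp1, Stx1a and Sv2a probe 1 fell, 4 of 12 against 35.6% of all probes. The median change was -0.07 over the 12 probes and -0.09 over all probes. The KNL arrays serve in both comparisons, so that the opposite signs in KNL vs WNL and KTL vs KNL are not independent of each other. Both KNL arrays lay outside the range of the other 6 arrays for 8 of 12 probes (66.7%), 5 above and 3 below, against 64.4% of all probes. Both WNL arrays did so for 3 probes, all below, against 14.7% of all probes, both KTL arrays for 0 against 13.5%, and both WTL arrays for 2, Syp and Syn1 probe 1, against 5.08%.

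The comparisons without KNL held no called member. In WTL vs WNL, the test of training in wild type, the changes of the 12 probes ran between -0.32 and 0.57. Limma called 0 of them, against 0% of all probes by limma. SAM called 0 of them too. Over the whole array, the alternatives other than leaving out 1 array, SAM among them, called at most 7 probes. The largest were Sv2a probe 1 (0.57 ± 0.14, 95% interval 0.22 to 0.91, adjusted p = 0.214) and Vamp1 (0.43 ± 0.11, 95% interval 0.16 to 0.70, adjusted p = 0.220). At an unadjusted p under 0.05 there were 5 of 12 probes in this limma fit, and 15.1% of all probes. Those were Vamp1, Stx1a, Syt1 probe 1, Sv2a probe 1 and Syp, each higher in WTL. In KTL vs WTL, the test of the knockout after training, the changes ran between -0.39 and 0.04, with 0 called by limma against 0.0241% of all probes. SAM called 0 members there too, and the same alternatives called at most 50 probes of the array. Vamp1 (-0.39, adjusted p = 0.178) and Syp (-0.32, adjusted p = 0.186) were the 2 members with an unadjusted p under 0.05, against 17.5% of all probes. In KTL vs WNL the changes lay between -0.42 and 0.31, and limma called 0 against 0.0422% of all probes. SAM called 0 members there too, and the same alternatives called at most 37 probes of the array. Of the members 0 had an unadjusted p under 0.05 in KTL vs WNL, against 11.5% of all probes. Vamp1, with 1211 and 1054 in KTL against 1125 and 1080 in WNL, differed by 0.04 there, with a 95% interval of -0.24 to 0.31.

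**Figure D2:**
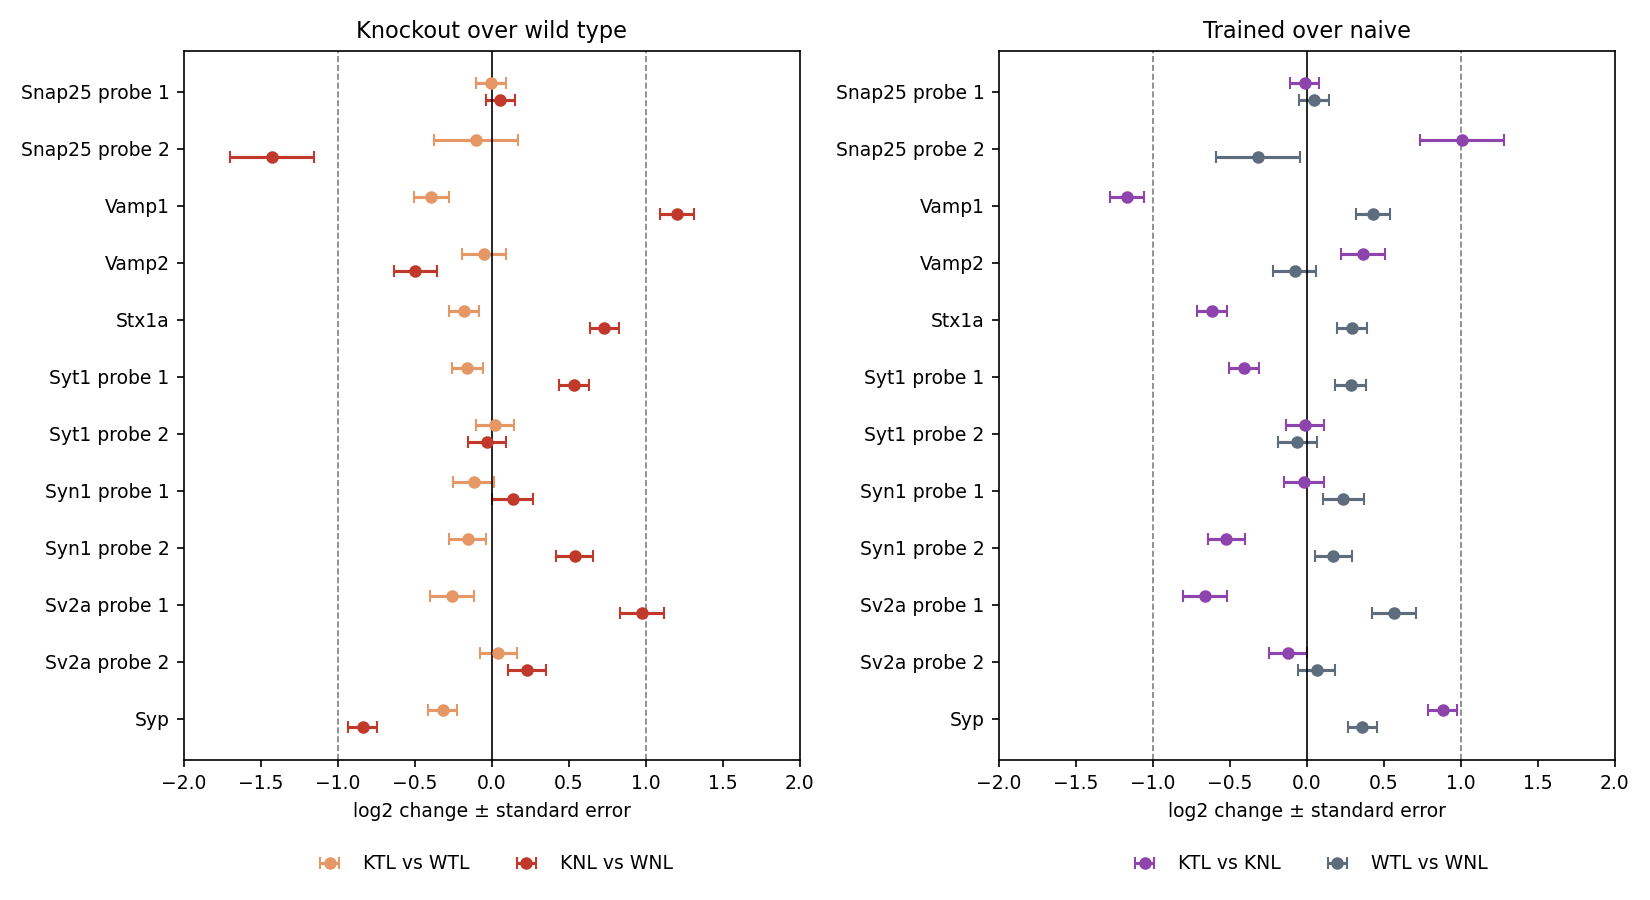
Log2 change with its standard error for each probe, knockout over wild type on the left (KTL vs WTL and KNL vs WNL) and trained over naive on the right (KTL vs KNL and WTL vs WNL); dashed lines mark a 2-fold change. KNL vs WNL reaches 1.20 for Vamp1 and -1.43 for Snap25 probe 2, whereas KTL vs WTL lies between -0.39 and 0.04.

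Whether the knockout change differed between trained and naive mice was tested directly as the interaction, the change in KTL vs WTL minus that in KNL vs WNL. Vamp1 (-1.60 ± 0.16, adjusted p = 0.00140) and Sv2a probe 1 (-1.23 ± 0.20, adjusted p = 0.00482) were called, 2 of 12 probes against 21.8% of all. With any fold Stx1a (-0.91 ± 0.14, adjusted p = 0.00363) and Syt1 probe 1 (-0.69 ± 0.14, adjusted p = 0.00890) passed too, 4 of 12 and all negative, against 26.2% of all probes. Their adjusted p stayed under 0.01 in 9 (Stx1a) and 4 (Syt1 probe 1) of 15 alternative limma settings. Snap25 probe 2 (1.32 ± 0.38, adjusted p = 0.0280) and Syp (0.52 ± 0.13, adjusted p = 0.0188) did not pass. The Sv2a call was lost without any 1 of 7 arrays, all but WTL replicate 1, at adjusted p-values of 0.0109 to 0.0270, and the Vamp1 call without KTL replicate 2 (adjusted p = 0.0111).

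The genes with a pattern most like the members called in KNL vs WNL were sought among all named genes, by the root mean square distance of the changes in KNL, KTL and WTL relative to WNL, over 4 groups and 8 arrays. For Snap25 probe 2 they were Rab3a (distance 0.02), the vesicle GTPase that binds RIM proteins, Cpt2 (0.04), a mitochondrial enzyme of fatty acid oxidation, and Mafg (0.05), a small Maf transcription factor. Rab3a read 9916 and 8189 in KNL, 23141 and 25683 in WNL, 17517 and 18973 in KTL, and 22917 and 17583 in WTL. For Vamp1 the nearest were Upk3b, a uroplakin (0.01), Sh3bp1 (0.01), and Mrgprg, a receptor of the Mas-related family (0.02). Upk3b read 2261 and 2909 in KNL, 1282 and 986 in WNL, 1292 and 1044 in KTL, and 1338 and 1718 in WTL. All these distances are smaller than the standard errors of the changes matched, 0.27 for Snap25 probe 2 and 0.11 for Vamp1. The order of the nearest genes was not tested.

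A wider list of 154 other genes of release and vesicle recycling had 120 measured members, each read by its brightest probe. In KNL vs WNL 3 rose (2.5%) and 25 fell (20.8%), while of all 11136 named genes 6.24% rose and 13.6% fell, so that falls outnumbered rises across the array too. The list had 23.3% called against 19.9% of all named genes, and a median of -0.18 against 0.13. In KTL vs KNL 26 rose (21.7%) and 7 fell (5.83%), against 12.9% and 7.11% of all named genes, which makes 27.5% called against 20%, with a median of 0.24 against -0.08. In WTL vs WNL, KTL vs WTL and KTL vs WNL limma called 0 of 120, with 14, 22 and 19 genes (11.7%, 18.3% and 15.8%) at an unadjusted p under 0.05, against 15.5%, 17% and 11.3% of all named genes. The list was chosen with earlier results of these data known, and neither it nor its sub-lists were tested as a set.

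**Figure D3:**
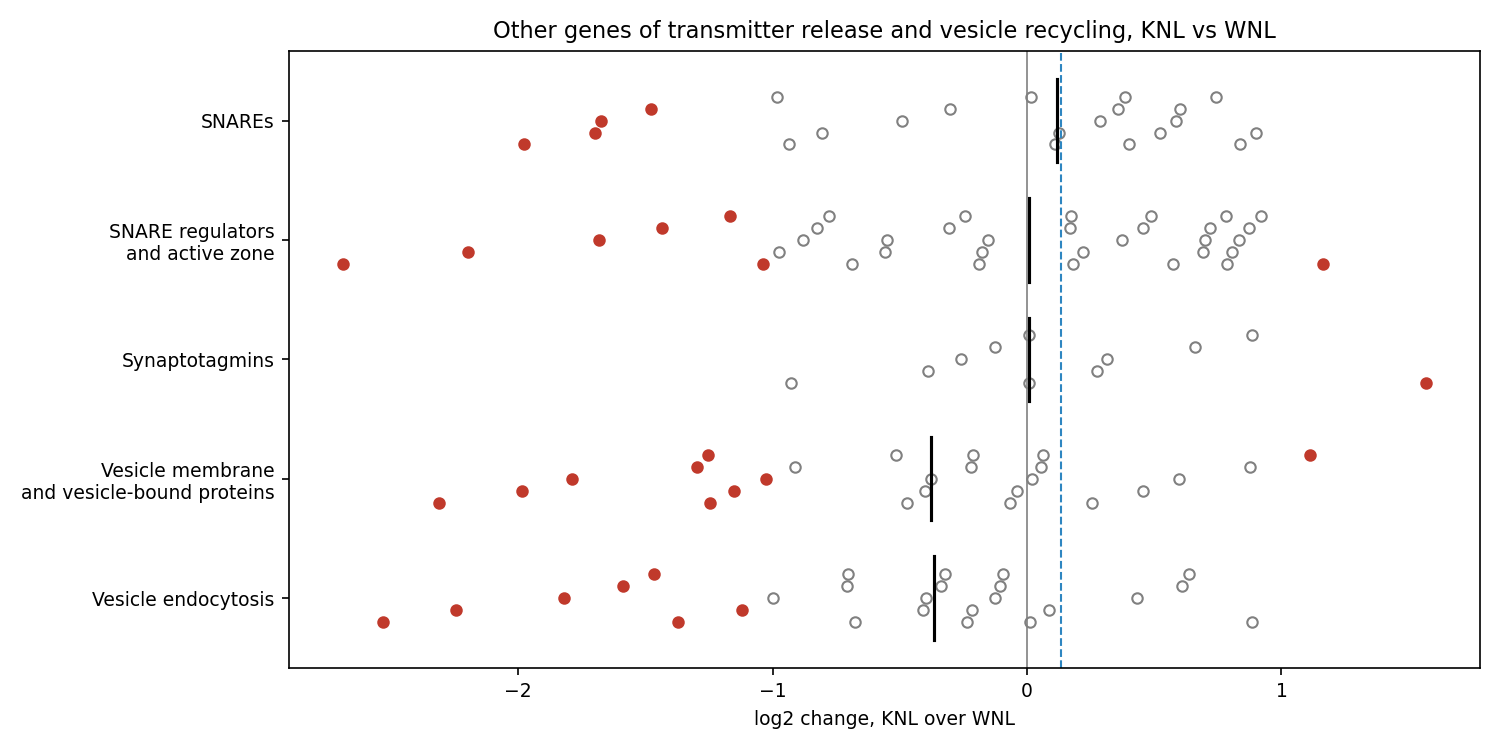
Log2 change in KNL over WNL for the 120 measured genes of the wider list in 5 sub-lists, 1 point per gene; filled points were called, the black bar is the median of a sub-list and the blue dashed line the median of all named genes (0.13). Called genes lie mostly on the left, as low as -2.69 for Pclo, and the medians of vesicle membrane proteins (-0.38) and endocytosis (-0.37) are the lowest.

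Of 22 other SNAREs 4 fell and 0 rose in KNL vs WNL, 18.2% against 19.9% of all named genes, with a median of 0.12. Sec22b, a SNARE of transport between endoplasmic reticulum and Golgi, read 217 and 192 in KNL against 843 and 765 in WNL (-1.98 ± 0.16, adjusted p = 0.000305). Stx16, of the trans-Golgi network, read 100 and 103 in KNL, at or next to the floor of 100, against 312 and 349 in WNL, a fall of at least 1.70 on the log2 scale. In KTL vs KNL 5 rose (22.7% against 20% of all named genes), the largest being Stx12, a syntaxin of endosomes, which read 601 and 857 in KTL against 183 and 242 in KNL (1.77 ± 0.22, adjusted p = 0.00143).

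Of 36 SNARE regulators and active zone genes 1 rose and 6 fell in KNL vs WNL (19.4% against 19.9% of all named genes), and 6 rose and 3 fell in KTL vs KNL (25% against 20%). Pclo, the large scaffold piccolo of the active zone, read 780 and 487 in KNL, 3999 and 3937 in WNL, 3592 and 4491 in KTL, and 4372 and 2533 in WTL. It was lower in KNL than in every other group (-2.69 ± 0.32 in KNL vs WNL, adjusted p = 0.00103) and 6.52-fold higher in KTL vs KNL. Ppfia2, the scaffold liprin-alpha-2, read 104 and 100 in KNL, likewise at the floor, against 490 and 445 in WNL, a fall of at least 2.20. Rims3, a short RIM protein, went the other way, with 2095 and 3039 in KNL against 1242 and 1021 in WNL (1.16 ± 0.25, adjusted p = 0.00796), and it fell by 1.45 in KTL vs KNL. Rims4, its close relative, fell by 1.15 there.

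Of 11 other synaptotagmins 1 rose in KNL vs WNL (9.09% against 19.9% of all named genes) and 2 fell in KTL vs KNL (18.2% against 20%). Syt3 read 1804 and 2450 in KNL, 789 and 639 in WNL, 801 and 702 in KTL, and 1038 and 1329 in WTL. KNL was the highest group and WTL the next, and the change was 1.57 ± 0.21 in KNL vs WNL (adjusted p = 0.00151) and -1.49 ± 0.21 in KTL vs KNL (adjusted p = 0.00203). Syt6 fell by 1.08 in KTL vs KNL.

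Of 25 further vesicle membrane and vesicle-bound genes 1 rose and 8 fell in KNL vs WNL, 36% against 19.9% of all named genes (6.24% rising and 13.6% falling), with a median of -0.38. Slc32a1, the vesicular transporter of GABA and glycine, read 646 and 490 in KNL, 2973 and 2620 in WNL, 2433 and 2444 in KTL, and 1862 and 1677 in WTL. It fell by 2.31 ± 0.16 in KNL vs WNL (adjusted p = 0.000188) and rose by 2.12 ± 0.16 in KTL vs KNL (adjusted p = 0.000332). Synpr, a synaptophysin relative, had 318 and 256 in KNL against 1121 and 1135 in WNL (-1.98 ± 0.15). Syngr4, of the synaptogyrin family, was the riser, with 563 and 813 in KNL against 307 and 319 in WNL (1.11 ± 0.19, adjusted p = 0.00388). Syn3, a synapsin like Syn1, fell by 1.18 in KTL vs KNL.

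Of 26 genes of vesicle endocytosis 7 fell and 0 rose in KNL vs WNL, 26.9% against 19.9% of all named genes (13.6% falling), with a median of -0.37. In KTL vs KNL 7 rose and 0 fell, 26.9% against 20% (12.9% rising), with a median of 0.48. Eps15, a clathrin adaptor, read 1412 and 1794 in KNL, 7831 and 7269 in WNL, 8017 and 7254 in KTL, and 6396 and 7169 in WTL. KNL lay below all others, at -2.25 ± 0.15 in KNL vs WNL (adjusted p = 0.000180) and 2.26 ± 0.15 in KTL vs KNL. Clta, a clathrin light chain, read 142 and 134 in KNL against 953 and 670 in WNL (-2.53 ± 0.30, adjusted p = 0.00102).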

How the data were processed

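Left hippocampi of naive and trained Cav3.2 knockout and wild-type mice (KNL, WNL, KTL, WTL) were measured on 2 arrays each. The deposited values are Cy5 intensities on a linear scale from the Mouse Whole Genome OneArray. The authors state a floor of 100 and quantile normalization, yet the lowest deposited value was 7.23, so the floor, quantile normalization and log2 were applied here in that order. Array medians lay at 481 to 482, and 6.64% to 6.86% of probes were at the floor, which with 2 arrays per group limits the precision. Of 29922 probes 13334 were blank on all arrays, leaving 16588.

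A linear model of all 8 arrays, holding 1 coefficient for each group, was fitted by limma 3.58.1 (R 4.3.3), leaving 4 residual and 2.45 prior degrees of freedom, with Benjamini-Hochberg adjustment across the whole array. Probes were called at adjusted p under 0.01 and over 2-fold. Intervals are 95% intervals of single changes. Gene symbols come from the platform annotation, updated through RefSeq for the lists. Scripts were tested on simulated data. The members and lists were chosen with earlier results of these data known. Named are all member probes, Cacna1h, in each sub-list the called genes that rose most (1) and fell most (2) per comparison, the 3 genes nearest each called member, and the markers needed to check the tissue. The 10 marker lists cover hippocampal and other neurons, glia, endothelium, choroid plexus, thalamus and neocortex. Alternatives changed the floor, normalization, filter, test (SAM, the methods' test), call rule, samples, replicate block and arrays. The right hippocampi are not analysed here.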

Additional observations from a re-analysis of the deposited data

Results flagged for a closer look

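For 4 of 12 probes the knockout change differed between trained and naive mice by the interaction test of limma. That is at an adjusted p under 0.01 with any fold, which 26.2% of all probes passed. Vamp1 changed by -0.39 in KTL vs WTL and by 1.20 in KNL vs WNL, an interaction of -1.60 on the log2 scale. Sv2a probe 1 changed by -0.26 and 0.97 in the same comparisons, an interaction of -1.23. Stx1a had changes of -0.18 and 0.73 (interaction -0.91), and Syt1 probe 1 of -0.16 and 0.53 (interaction -0.69). The adjusted p stayed under 0.01 in 14 of 15 alternative limma settings for Vamp1, 9 for Stx1a, 6 for Sv2a probe 1 and 4 for Syt1 probe 1. All 4 interactions rest on the same 2 KNL arrays. Groups of 2 arrays are too small for a test of outlying arrays.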

How the results depend on the processing

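The count of called members in KNL vs WNL, 2 of 12, became 1 with a floor of 200 and with only the 4 arrays compared. It became 8 at an adjusted p under 0.05 with any fold, where 10068 of all 16588 probes passed. Tested against a 2-fold change it was 0. Leaving out 1 array gave 1 to 2. In KTL vs KNL the count of 1 became 2 with only the 4 arrays and with SAM, and stayed 1 without any single array. It became 7 at the looser p, against 9933 of all probes, and 0 against a 2-fold change. For the interaction the count of 2 became 1 with a floor of 200 and with the replicate block, and 0 to 2 without 1 array. It became 7 at the looser p, against 8847 of all probes, and 0 against a 2-fold change. With the replicate block Sv2a probe 1 lost its interaction call (adjusted p = 0.0112), and the other member counts were unchanged at 2, 1 and 0. Deviations of same-numbered arrays correlated between -0.249 and 0.432 over the 6 pairs of groups. They were positive for KNL with WTL (0.432) and WNL with KTL (0.0827) and negative for the other pairs. The numbers thus give no pairing common to all groups. A factor shared by arrays of different numbers was not tested, and the replicate block does not adjust for it. Vamp1 kept its calls in KNL vs WNL and KTL vs KNL under all alternatives except the test against a 2-fold change. Over all probes, calls in KNL vs WNL (3383) ran from 1400 to 3423 without 1 array and from 459 to 10068 otherwise, those in KTL vs KNL (3332) from 930 to 3379 and from 251 to 9933, and those of the interaction (3610) from 241 to 3513 and from 153 to 8847. Calls of the wider list with the mean over all probes of a gene were 26 in KNL vs WNL and 34 in KTL vs KNL.

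Sign changes occurred only in comparisons in which the probe concerned was not called. Without 1 array, Syt1 probe 2 ran from -0.121 to 0.0577 in KNL vs WNL, from -0.0774 to 0.0552 in KTL vs KNL, from -0.132 to 0.0466 in KTL vs WNL, from -0.0774 to 0.115 in KTL vs WTL, from -0.158 to 0.0345 in WTL vs WNL and from -0.0456 to 0.147 for the interaction. Snap25 probe 1 ran from -0.0133 to 0.0922 in KTL vs WNL, from -0.0242 to 0.0063 in KTL vs WTL and from -0.0067 to 0.10 in WTL vs WNL, and Snap25 probe 2 from -0.39 to 0.18 in KTL vs WTL and from -0.65 to 0.018 in WTL vs WNL. Sv2a probe 2 ran from -0.084 to 0.17 in KTL vs WTL and from -0.0626 to 0.19 in WTL vs WNL. Syn1 probe 1 ran from -0.0396 to 0.31 in KNL vs WNL and from -0.0583 to 0.29 in KTL vs WNL, and Syn1 probe 2 from -0.11 to 0.14 in KTL vs WNL, where cyclic loess gave -0.00884. Vamp1 ran from -0.0648 to 0.14 in KTL vs WNL, and Vamp2 from -0.23 to 0.12 in KTL vs WTL and from -0.26 to 0.098 in WTL vs WNL. When an array is left out, the lone array of its group is assumed to vary like the other groups. The cause of these changes was not tested.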
